A study of Mus musculus with 14 samples.

Results

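The genes described here are 9 transcripts of the embryonic mouse cortex, Flrt3, Adcyap1r1, Pdzrn3, Pdzrn4, Klhl35, Btbd17, Rai2, Zfhx4 and 2210408K08Rik, that stood lower in cells given a Fezf2 vector. They were chosen by their measured values in these same arrays, because each was among the largest falls with the Fezf2 vector at 24 h or at 48 h. The 9 genes are represented by 15 probe sets, out of 18193 gene symbols and 45037 probe sets in the value table. Their falls are therefore given as a description. Calls by adjusted p on those falls are printed below, and they are no independent evidence.

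The samples were GFP-positive cells sorted by FACS from the cortex of CD1 mouse embryos, whose progenitors had received DNA by in utero electroporation at embryonic day 14.5. In this method a plasmid is brought into a brain ventricle and pushed by current into the cells lining it, so only a part of the progenitors and their progeny carries the vector. Cells were sorted 48 h after electroporation (4 arrays of Fezf2GFP and 4 of CtrlGFP) or 24 h after it (3 arrays of Fezf2GFP and 3 of CtrlGFP). All 4 groups share the strain, the stage of electroporation and the GFP used for the sort, and the vectors differ by Fezf2. The labels do not say whether the 14 arrays stand for separate litters, nor how many embryos were pooled for each; the p-values thus rest on the scatter among arrays, which may be partly technical.

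Fezf2 is a zinc finger transcription factor needed for corticospinal and other deep-layer projection neurons, and at this stage cortical progenitors mainly produce upper-layer callosal neurons. A newborn cortical neuron leaves the ventricular wall, migrates outward and switches on adhesion molecules and receptors that position it. Several of the 9 genes belong to families that act in these steps. Flrt3 is a membrane protein with leucine-rich repeats that binds Unc5 receptors and latrophilins. Adcyap1r1 is the receptor for the neuropeptide PACAP and signals through adenylyl cyclase. Pdzrn3 and Pdzrn4 are relatives of the Lnx ubiquitin ligases that combine PDZ domains with a RING finger (in Pdzrn3, an active ligase). Klhl35 and Btbd17 carry a BTB domain, the part through which many kelch proteins serve as adaptors of the ubiquitin ligase scaffold Cul3. Rai2 was found as a gene induced by retinoic acid and its protein binds CtBP corepressors. Zfhx4 is a very large transcription factor with zinc fingers and homeodomains. For 2210408K08Rik only the symbol is used here.

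Of the 9 genes, 6 had a promoter window in the RefSeq table used here (mouse build GRCm38.p6, 250 bases before to 50 after an annotated start), with 7 windows in all; Rai2, Zfhx4 and 2210408K08Rik had none. The windows of Flrt3, Pdzrn3 and Pdzrn4 are shown because these genes were called lower at 48 h and not at 24 h, and that of Btbd17 because its change with time ran the other way. They are chr2:140671427-140671726 on the minus strand for Flrt3, chr6:101377848-101378147 on the minus strand for Pdzrn3, chr15:92396560-92396859 and chr15:92596859-92597158 on the plus strand for the 2 starts of Pdzrn4, and chr11:114795843-114796142 on the minus strand for Btbd17. Capitals mark a match, on either strand, to any of 7 motifs: TATAAA (a form of the TATA box), CCAAT (the CAAT box), GGGCGG (the GC box), CAGATG (a proneural E-box), CACGTG (a palindromic E-box), TAATTA (a homeodomain core) and TGACGTCA (the cAMP response element).
Flrt3: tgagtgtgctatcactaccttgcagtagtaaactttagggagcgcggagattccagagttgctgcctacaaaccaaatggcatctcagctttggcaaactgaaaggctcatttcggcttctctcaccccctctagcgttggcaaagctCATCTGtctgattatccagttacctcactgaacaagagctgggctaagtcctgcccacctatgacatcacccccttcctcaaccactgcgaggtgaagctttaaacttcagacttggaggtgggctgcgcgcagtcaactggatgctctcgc
Pdzrn3: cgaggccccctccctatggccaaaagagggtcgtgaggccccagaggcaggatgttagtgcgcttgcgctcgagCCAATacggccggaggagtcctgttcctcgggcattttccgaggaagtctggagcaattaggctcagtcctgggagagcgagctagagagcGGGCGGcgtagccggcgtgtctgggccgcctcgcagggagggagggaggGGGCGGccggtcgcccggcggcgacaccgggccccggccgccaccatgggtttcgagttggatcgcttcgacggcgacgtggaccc
Pdzrn4, first start: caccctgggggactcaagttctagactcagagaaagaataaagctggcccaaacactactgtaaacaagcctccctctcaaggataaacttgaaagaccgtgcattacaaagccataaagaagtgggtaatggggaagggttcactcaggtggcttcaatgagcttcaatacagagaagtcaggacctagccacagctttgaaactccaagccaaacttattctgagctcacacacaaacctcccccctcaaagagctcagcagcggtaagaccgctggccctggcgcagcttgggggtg
Pdzrn4, second start: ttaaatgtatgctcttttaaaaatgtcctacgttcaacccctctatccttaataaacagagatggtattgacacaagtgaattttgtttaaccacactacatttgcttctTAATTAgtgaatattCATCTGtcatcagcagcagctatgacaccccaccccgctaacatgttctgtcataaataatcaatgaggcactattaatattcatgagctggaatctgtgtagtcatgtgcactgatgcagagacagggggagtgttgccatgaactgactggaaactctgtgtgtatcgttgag
Btbd17: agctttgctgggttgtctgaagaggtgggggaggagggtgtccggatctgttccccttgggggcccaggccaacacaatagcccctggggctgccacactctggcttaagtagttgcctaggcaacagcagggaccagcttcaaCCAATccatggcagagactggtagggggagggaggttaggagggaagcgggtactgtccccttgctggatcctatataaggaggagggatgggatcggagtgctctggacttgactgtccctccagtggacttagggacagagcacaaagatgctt

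The windows differed widely in composition. That of Pdzrn3 held 68.7% G and C and 32 CpG, more CpG than 90.5% of the 32851 windows of the table, whose median was 7. The Flrt3 window held 8 CpG, the Pdzrn4 windows 4 and 3, and the Btbd17 window 3. Of the windows not shown, that of Adcyap1r1 held 17 CpG and that of Klhl35 held 7. CCAAT stood in the windows of Klhl35 and Pdzrn3, at -176 from the start in each, of Btbd17 at -106 and of Adcyap1r1 at -28, and in 37.4% of all windows. GGGCGG, the GC box, stood in those of Pdzrn3 (-85 and -36) and Adcyap1r1 (-45), and in 35.7% of all windows. CAGATG, an E-box that proneural factors can bind, stood at -102 in Flrt3 and at -125 in the second Pdzrn4 window, and in 17.2% of all windows. The second Pdzrn4 window also held TAATTA, a homeodomain core, at -140 (5.29% of all windows). The first Pdzrn4 window held no match, and no window of these genes held the exact letters TATAAA (13.6% of all windows), CACGTG (7.15%) or TGACGTCA (1.79%). Other forms of the TATA box were not searched. The Btbd17 window holds the run tatataag, so absence of TATAAA there is not absence of a TATA box. No motif was shared by all windows. These are matches of letters only.

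The deposited values are log2 levels from GCRMA, which ran from 0.43 to 16.47, and a probe set was counted as dim below 4. Over the 10295 genes tested, correlations within a group were 0.942 to 0.993. CtrlGFP 24 h replicate 1 and CtrlGFP 48 h replicate 2 stood apart, with array medians of 3.5 and 3.45 where the other 12 lay at 3.26 to 3.31. Fezf2 went against its label: its 1 probe set read 9.33 ± 0.70 in the Fezf2GFP-labelled and 10.15 ± 0.48 in the CtrlGFP-labelled arrays at 48 h (SD, n = 4 each), and 9.44 ± 0.11 and 11.30 ± 0.42 at 24 h (SD, n = 3 each). Where that probe set lies relative to the cDNA of the vector is unknown here. The labels thus stand unchecked by it, and all directions between vectors below depend on them. The 10 deep-layer neuron markers tested had mean levels of 10.63 to 11.51 in Fezf2GFP-labelled and 8.83 to 10.48 in CtrlGFP-labelled arrays at 48 h, and of 10.09 to 10.68 and 9.06 to 9.42 at 24 h. The groups did not overlap at either time. Of the 10, 1 passed at 48 h (Wnt7b, higher) and 0 passed at 24 h by limma, and at an unadjusted p below 0.05 it was 7 at each time, all higher. The sample titles name the cells only as cortical progenitors. The 15 markers of radial glia were above the dim level on all arrays except Hes1 on 1 CtrlGFP array at 48 h. Their mean levels were 10.90 to 11.69 and 10.23 to 10.98 at 48 h, where the vectors overlapped, and 11.72 to 11.86 and 11.44 to 11.64 at 24 h, where they did not. Of the 15, 2 passed as higher at 48 h, Nes (1.30, limma adjusted p = 0.00472) and Aldoc (0.74, adjusted p = 0.0422), and 0 passed at 24 h. At an unadjusted p below 0.05, 7 were higher and 0 lower at 48 h, and 2 higher and 1 lower at 24 h. The 11 upper-layer neuron markers tested overlapped in mean level at both times (10.28 to 10.70 and 9.64 to 10.79 at 48 h, 9.71 to 10.16 and 9.23 to 9.87 at 24 h). At 48 h Inhba (1.59, limma adjusted p = 0.00859) and Dkk3 (1.71, adjusted p = 0.0191) passed as higher, while Cux1 (-1.91, adjusted p = 0.0523) and Cux2 (-0.98, adjusted p = 0.0769) did not pass. At 24 h 0 of the 11 passed, and at an unadjusted p below 0.05 it was 2 higher and 2 lower at 48 h, and 1 and 1 at 24 h. The 15 markers of intermediate progenitors, the dividing precursors of neurons, overlapped between vectors at both times (9.54 to 10.12 and 9.67 to 10.24 at 48 h, 10.66 to 10.92 and 10.73 to 11.02 at 24 h), and 1 of them, Gadd45g, passed as lower at 48 h. At 24 h 0 of these 15 passed. At an unadjusted p below 0.05, 2 of them were higher and 2 lower at 48 h, and 0 higher and 3 lower at 24 h. The 10 markers of GABAergic neurons, which arise outside the cortex, overlapped too (5.74 to 6.58 and 4.57 to 6.83, and 4.39 to 6.94 and 4.20 to 4.68), with CtrlGFP 48 h replicate 1 and Fezf2GFP 24 h replicate 1 the highest of their groups. None of the 10 passed by limma at either time, while 1 at 48 h and 4 at 24 h were higher at an unadjusted p below 0.05. Of the microglia markers 10 of 11, and of the endothelial markers 7 of 9, were dim on every array. So were 6 of 8 mesenchymal and mural markers, and the 2 tested had mean levels of 6.95 to 8.57 and 6.03 to 7.28 at 48 h. At 24 h these were 5.28 to 8.40 and 5.24 to 6.95. Of 3 oligodendrocyte lineage markers tested, Mbp passed as higher at 48 h (1.01, limma adjusted p = 0.0221). Olig1 (-1.46, adjusted p = 0.316) and Olig2 (-1.40, adjusted p = 0.0799) did not pass. The part of these markers in the falls was not tested. Counts at an unadjusted p below 0.05, here and below, have no share of all genes beside them. They are not read as an excess.

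At 48 h, 8 of the 9 genes were called lower in the Fezf2GFP-labelled arrays (limma, Benjamini-Hochberg adjusted p below 0.05 over all genes tested), where 0.427% of all genes tested were called lower and 2.7% higher. At 24 h it was 6 of the 9, where 0.253% were called lower and 0.806% higher. Since the genes were chosen on these contrasts, the counts describe the choice. The gene not called at 48 h was 2210408K08Rik, and those not called at 24 h were Flrt3, Pdzrn3 and Pdzrn4. Only Rai2, Zfhx4, Klhl35, Btbd17 and Adcyap1r1 were therefore called at both times, 5 of the 9. They were 5 of the 9 genes so called on the whole array (0.0874%), the other 4 being Igsf3, Sesn1, Shisa2 and Srebf1. Fezf2GFP and CtrlGFP arrays were fully apart for 8 of the genes at 48 h (1.72% of all genes tested lay lower without overlap) and for 7 at 24 h (7%). The median log2 fold change of the 9 genes was -2.22 at 48 h and -1.88 at 24 h, against 0.063 and 0.056 over all genes tested. In sorted cells in bulk, fewer cells of a type and less RNA per cell cannot be told apart.

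**Figure D1:**
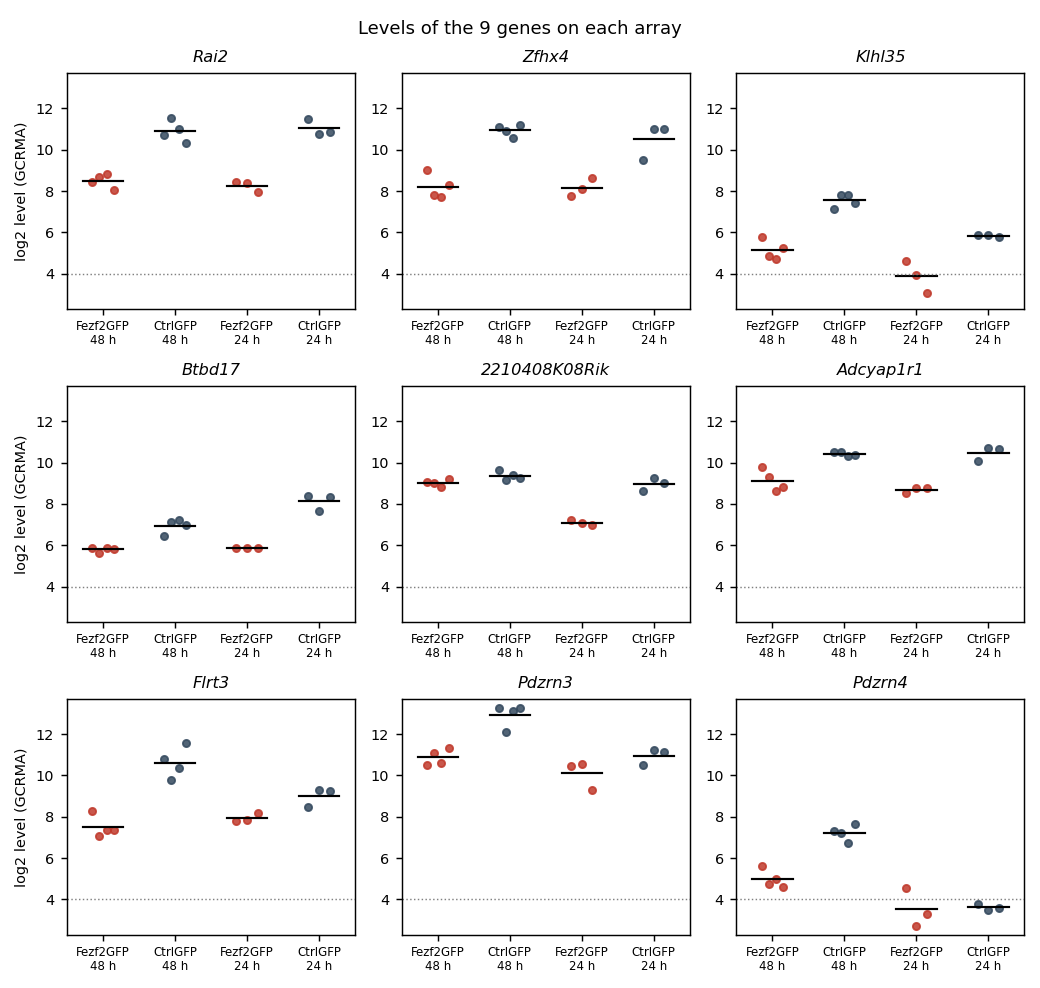
Log2 level (GCRMA) of the 9 genes on each of the 14 arrays, by group. Points are arrays, bars group means and the dotted line the dim level of 4; the vectors are apart at 24 h and overlap at 48 h for 2210408K08Rik, are apart at 48 h and overlap at 24 h for Pdzrn4, and are apart at both times for Rai2 and Zfhx4.

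Among the falls called without overlap, ranked by size, the genes took ranks 1 to 5, 7, 14 (Adcyap1r1, -1.29) and 20 (Btbd17, -1.14) of 42 at 48 h and ranks 1, 3 to 6 and 8 of 26 at 24 h. Among the highest ranks, others were held at 48 h by B2m, and at 24 h by Srebf1 and by Fezf2 itself. Of the genes whose larger fall was at 48 h, Pdzrn3 stood lowest in rank at -2.06 (log2 fold change), and next after it came Srebf1 at -1.72, Fzd1 at -1.63 and Shisa2 at -1.61, which are not among the 9. Just inside at 24 h stood Adcyap1r1 at -1.79, and just outside stood Fzd8 at -1.70, Plaat3 at -1.68 and Shisa2 at -1.56. At 24 h the genes on either side of the edge of the choice thus differed by less than the SE of either (0.27 and 0.26). Srebf1, a regulator of lipid synthesis, fell at both times by more than some of the genes described here (-1.72 and -2.70).

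Flrt3 had the largest fall of any gene tested at 48 h. Its main probe set read 8.27, 7.09, 7.34 and 7.37 in the Fezf2GFP-labelled arrays at 48 h, against 10.80, 9.76, 10.35 and 11.56 in the CtrlGFP-labelled ones. At 24 h Flrt3 read 7.81, 7.86 and 8.20 with Fezf2GFP, against 8.45, 9.30 and 9.24 with CtrlGFP. The vectors were apart at both times, but by far more at 48 h: the log2 fold changes were -3.11 (SE 0.36) at 48 h and -1.04 (SE 0.42) at 24 h. The second Flrt3 probe set, annotated to the same transcript accession and so no independent design, gave -2.57 (SE 0.54) and -1.05 (SE 0.62).

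The level of Flrt3 in the controls differed between the times, and that in the Fezf2GFP-labelled arrays did not pass. With CtrlGFP, Flrt3 was 3.08-fold higher at 48 h than at 24 h (log2 fold change 1.62, SE 0.39, limma adjusted p = 0.0147), with no overlap between the arrays. With Fezf2GFP the same difference was -0.45 (SE 0.39, adjusted p = 0.552), and the arrays overlapped. The CtrlGFP call was lost without CtrlGFP 24 h replicate 1 (1.35, adjusted p = 0.0719), with the mean over both probe sets (1.49, adjusted p = 0.0538) and with only the 2 groups in the fit (adjusted p = 0.069). The second Flrt3 probe set differed by 1.37 between times with CtrlGFP (SE 0.58), and its arrays overlapped. That difference did not pass (limma adjusted p = 0.199, over the probe sets tested). Contrasts between times were not used to choose the genes, but they are made from the same arrays, so they are not independent of the choice.

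Pdzrn4 was called lower with Fezf2GFP at 48 h and lay near the dim level at 24 h with either vector. It read 5.63, 4.74, 5.01 and 4.58 in the Fezf2GFP-labelled arrays at 48 h, against 7.29, 7.20, 6.72 and 7.63 in the CtrlGFP-labelled arrays. At 24 h the levels of Pdzrn4 were 4.56, 2.73 and 3.27 with Fezf2GFP, against 3.76, 3.47 and 3.60 with CtrlGFP. At 24 h 2 of the 3 Fezf2GFP arrays and every CtrlGFP array were dim, so no fall can be read at that time. The log2 fold change between vectors at 48 h was -2.22 (SE 0.35). With CtrlGFP, Pdzrn4 was at least 9.26-fold higher at 48 h than at 24 h (limma adjusted p = 0.000113). With Fezf2GFP it was also higher at 48 h (limma adjusted p = 0.0218), with a fitted log2 fold change of 1.47 (SE 0.38) that is no exact size, since 2 of the 3 arrays at 24 h were dim. The rise with Fezf2GFP did not pass with no filter on dim probe sets (adjusted p = 0.0535), with only the 2 groups in the fit (0.0783), without Fezf2GFP 24 h replicate 2 (1.08, adjusted p = 0.123) or replicate 3 (1.35, adjusted p = 0.102), or without Fezf2GFP 48 h replicate 1 (1.26, adjusted p = 0.0573) or replicate 3 (1.47, adjusted p = 0.0509).

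Pdzrn3, the relative of Pdzrn4, also read highest with CtrlGFP at 48 h. It read 10.52, 11.10, 10.59 and 11.32 with Fezf2GFP at 48 h, against 13.25, 12.12, 13.14 and 13.24 with CtrlGFP. At 24 h Pdzrn3 read 10.48, 10.54 and 9.30 with Fezf2GFP, against 10.50, 11.22 and 11.14 with CtrlGFP. The vectors were apart at 48 h and overlapped at 24 h, with log2 fold changes of -2.06 (SE 0.34) and -0.85 (SE 0.39). With CtrlGFP, Pdzrn3 was 3.96-fold higher at 48 h than at 24 h (log2 fold change 1.99, SE 0.36, limma adjusted p = 0.00307). The difference with Fezf2GFP was 0.78 (SE 0.36, adjusted p = 0.21). The level with Fezf2GFP at 48 h (10.88 ± 0.39, SD, n = 4) and that with CtrlGFP at 24 h (10.95 ± 0.40, SD, n = 3) overlapped.

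Klhl35 was lower with Fezf2GFP and higher at 48 h with either vector. It read 5.78, 4.87, 4.72 and 5.24 with Fezf2GFP at 48 h, against 7.13, 7.81, 7.81 and 7.44 with CtrlGFP. At 24 h Klhl35 read 4.60, 3.93 and 3.08 with Fezf2GFP (2 of 3 arrays dim), against 5.87, 5.85 and 5.79 with CtrlGFP. No pair of groups next to each other in level overlapped, and the log2 fold changes between vectors were -2.39 (SE 0.31) at 48 h and -1.97 (SE 0.35) at 24 h, the second no exact size with 2 arrays dim. The 24 h fall was not called in 7 of 25 other fits, among them those without any one of the CtrlGFP 24 h replicates (-1.95 to -1.99), without Fezf2GFP 24 h replicate 3 (-1.57) or 2, and with only the 2 groups in the fit. Klhl35 was higher at 48 h than at 24 h by 1.28 with Fezf2GFP (log2 fold change, SE 0.33, limma adjusted p = 0.0224) and by 1.71 with CtrlGFP (SE 0.33, adjusted p = 0.00425). The 1.28 is no exact size, since 2 of the 3 Fezf2GFP arrays at 24 h were dim. The rise with Fezf2GFP did not pass without Fezf2GFP 24 h replicate 2 (1.32, adjusted p = 0.0713) or replicate 3 (0.89, adjusted p = 0.123), or without Fezf2GFP 48 h replicate 1 (1.08, adjusted p = 0.0565). Nor did it pass with no filter on dim probe sets (adjusted p = 0.0514) or with only the 2 groups in the fit (0.0798).

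**Figure D2:**
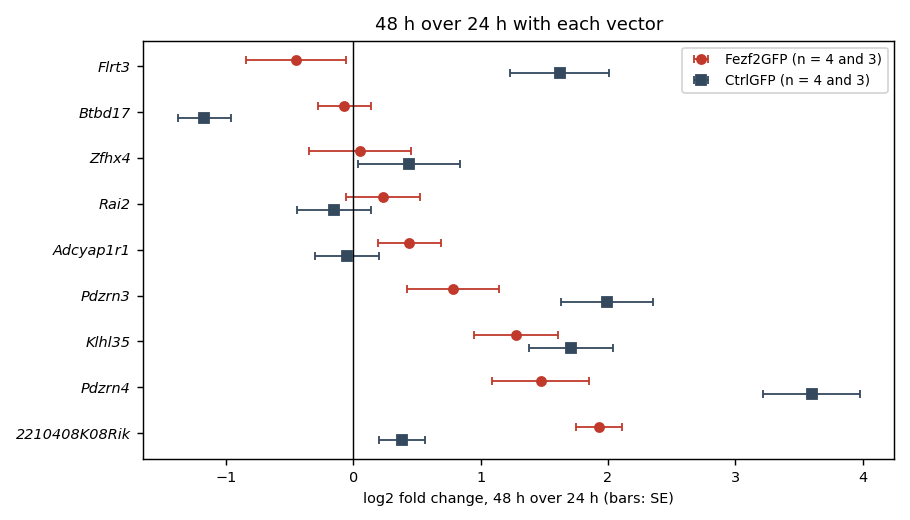
Log2 fold change of each gene at 48 h over 24 h with Fezf2GFP (circles) and with CtrlGFP (squares), with SE bars. Flrt3, Pdzrn3 and Pdzrn4 lie further right with CtrlGFP, 2210408K08Rik lies further right with Fezf2GFP, and Btbd17 lies below 0 with CtrlGFP (-1.17).

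Btbd17, the other BTB gene, ran the opposite way with time. It read 5.86, 5.64, 5.86 and 5.84 with Fezf2GFP at 48 h, against 6.43, 7.12, 7.24 and 6.99 with CtrlGFP. At 24 h Btbd17 read 5.88, 5.87 and 5.87 with Fezf2GFP, against 8.39, 7.66 and 8.31 with CtrlGFP. The vectors were apart at both times, and the log2 fold change was -1.14 (SE 0.20) at 48 h and -2.25 (SE 0.23) at 24 h. With CtrlGFP, Btbd17 was lower at 48 h than at 24 h, by 1.17 on the log2 scale (log2 fold change -1.17, SE 0.21, limma adjusted p = 0.00295), while with Fezf2GFP the difference was -0.07 (SE 0.21, adjusted p = 0.909). All 7 Fezf2GFP-labelled arrays of Btbd17 lay between 5.64 and 5.88, above the dim level of 4. Those at 24 h were nearly identical, with an SD of 0.006 on the log2 scale, while 5 of the 586 tested genes within 0.5 log2 units of that level had a smaller SD and their median SD was 0.24. Whether these readings are the floor of the probe set was not tested; if they are, both falls are lower limits in size and the change between times with Fezf2GFP cannot be read.

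2210408K08Rik was called lower with Fezf2GFP at 24 h and was not called at 48 h. It read 7.23, 7.08 and 6.96 with Fezf2GFP at 24 h, against 8.63, 9.27 and 9.01 with CtrlGFP. At 48 h it read 9.08, 8.99, 8.84 and 9.19 with Fezf2GFP, against 9.63, 9.14, 9.38 and 9.24 with CtrlGFP. The 24 h Fezf2GFP arrays stood below every other array, and the vectors overlapped at 48 h, with log2 fold changes of -1.88 (SE 0.19) and -0.32 (SE 0.17). With Fezf2GFP, 2210408K08Rik was 3.82-fold higher at 48 h than at 24 h (log2 fold change 1.93, SE 0.18, limma adjusted p = 6.22e-05). With CtrlGFP the difference was 0.38 (SE 0.18, adjusted p = 0.221).

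Adcyap1r1, Rai2 and Zfhx4 were lower with Fezf2GFP at both times and did not pass between times with either vector. Adcyap1r1 read 9.79, 9.28, 8.61 and 8.82 with Fezf2GFP at 48 h, against 10.52, 10.50, 10.31 and 10.35 with CtrlGFP. At 24 h Adcyap1r1 read 8.53, 8.76 and 8.76 with Fezf2GFP, against 10.09, 10.69 and 10.64 with CtrlGFP. Every Fezf2GFP-labelled array lay below every CtrlGFP-labelled one, and the falls were -1.29 (SE 0.23) at 48 h and -1.79 (SE 0.27) at 24 h. Between times the differences of Adcyap1r1 were 0.44 with Fezf2GFP (SE 0.25, limma adjusted p = 0.311) and -0.05 with CtrlGFP (SE 0.25, adjusted p = 0.942).

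Rai2 read 8.43, 8.69, 8.83 and 8.04 with Fezf2GFP at 48 h, against 10.71, 11.53, 11.02 and 10.33 with CtrlGFP. At 24 h Rai2 read 8.43, 8.40 and 7.97 with Fezf2GFP, against 11.50, 10.78 and 10.87 with CtrlGFP. The gap between the vectors exceeded the range within any group at both times, and the falls were -2.40 (SE 0.27) and -2.78 (SE 0.31), a 5.29-fold and a 6.88-fold lower level. Between times Rai2 differed by 0.23 with Fezf2GFP (SE 0.29, limma adjusted p = 0.707) and by -0.15 with CtrlGFP (SE 0.29, adjusted p = 0.835).

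Zfhx4 read 9.04, 7.81, 7.71 and 8.30 with Fezf2GFP at 48 h, against 11.12, 10.89, 10.57 and 11.19 with CtrlGFP. At 24 h Zfhx4 read 7.75, 8.09 and 8.64 with Fezf2GFP, against 9.51, 11.01 and 10.98 with CtrlGFP. The groups were apart at both times, with CtrlGFP 24 h replicate 1, one of the arrays that stood apart, the lowest of the controls. The falls were -2.73 (SE 0.37) at 48 h and -2.34 (SE 0.42) at 24 h, and without both arrays that stood apart -2.75 and -2.83. The 24 h fall of Zfhx4 was not called in 8 of 25 other fits, among them those without CtrlGFP 24 h replicate 2 (-2.09) or 3 (-2.10), without Fezf2GFP 24 h replicate 1 (-2.13) or 2 (-2.30), with the mean over both probe sets (-1.93), with no filter on dim probe sets and with only the 2 groups in the fit. Between times Zfhx4 differed by 0.05 with Fezf2GFP (SE 0.40, limma adjusted p = 0.965) and by 0.44 with CtrlGFP (SE 0.40, adjusted p = 0.583). A second Zfhx4 probe set gave -2.51 (SE 0.69) and -1.52 (SE 0.80), its 24 h arrays overlapped, and its CtrlGFP arrays at 48 h ranged from 4.90 to 7.71. The remaining probe sets of Adcyap1r1 (2), Btbd17 (1) and Pdzrn3 (1) were dim on all 14 arrays and are not read further.

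**Figure D3:**
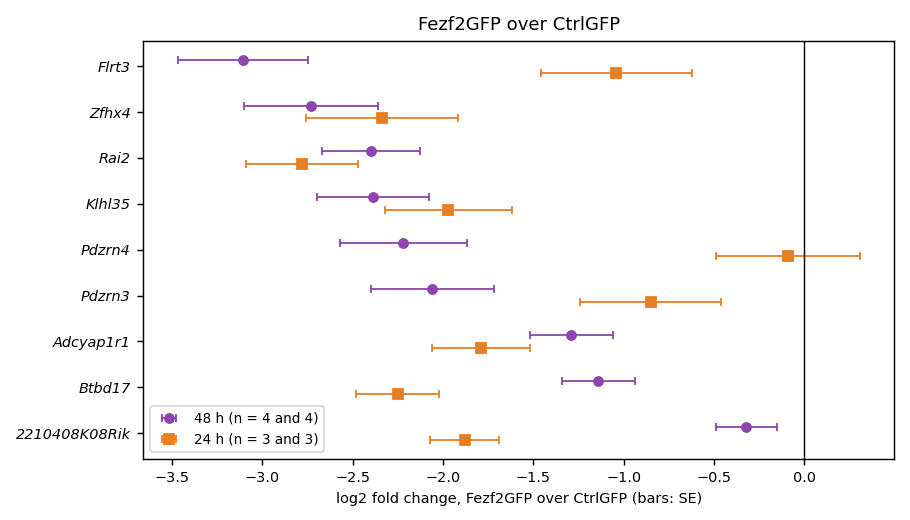
Log2 fold change of each gene in Fezf2GFP over CtrlGFP at 48 h (circles) and 24 h (squares), with SE bars, ordered by the 48 h value. Apart from Pdzrn4, the falls differ most between times for Flrt3 and Pdzrn3 (larger at 48 h) and for 2210408K08Rik and Btbd17 (larger at 24 h). Pdzrn4 was near or below the dim level at 24 h and is not compared. Whether the Fezf2GFP readings of Btbd17 are a floor was not tested.

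Set side by side, the fall at 48 h minus the fall at 24 h was -2.07 for Flrt3, -1.21 for Pdzrn3 and -2.13 for Pdzrn4 (whose 24 h groups were near or below the dim level, so that its place in this order is not read), and it was 1.56 for 2210408K08Rik and 1.10 for Btbd17. For Klhl35 (-0.42, no exact size, with dim Fezf2GFP arrays at 24 h), Zfhx4 (-0.39), Rai2 (0.38) and Adcyap1r1 (0.50) it was smaller. These differences were not tested, since both falls chose the genes. With Fezf2GFP, 3 of the 9 genes were called higher at 48 h than at 24 h (2210408K08Rik, Pdzrn4 and Klhl35) and 0 lower, beside 6.38% and 5.67% of all genes tested. At an unadjusted p below 0.05 the counts were also 3 and 0, and the share of all genes at that threshold is not given here. With CtrlGFP, 4 were called higher (Pdzrn4, Pdzrn3, Klhl35 and Flrt3) and 1 lower (Btbd17), beside 5.88% and 6.69% of all genes tested. The median change of the 9 genes between times was 0.44 with either vector, against -0.01 with Fezf2GFP and -0.019 with CtrlGFP over all genes tested. Without both arrays that stood apart, 8 of the genes were called at 48 h and 5 at 24 h between vectors (Klhl35 missing, -1.95), and 3 and 5 between times.

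Distances between centred profiles over the 14 arrays (root mean square, log2 units) described which genes ran alike. Among the 9, Zfhx4 and Flrt3 were nearest (0.59), followed by Btbd17 and Adcyap1r1 (0.60) and by Klhl35 and Pdzrn3 (0.66). Of the other genes tested, the nearest to the mean profile of the 9 were Sesn1 (0.44), Pcdh8 (0.57), Tmem158 (0.59), A330008L17Rik (0.61) and Triqk (0.64). Sesn1, a stress-induced gene, was also nearest to Adcyap1r1 (0.33), and Srebf1 was nearest to both Rai2 (0.43) and Btbd17 (0.50). Pdzrn4 was nearest to Bcl6 (0.52), a transcriptional repressor, Pdzrn3 to Chrna7 (0.56), a nicotinic receptor subunit, and 2210408K08Rik to Tacc2 (0.42). All of these profiles share the same arrays, and the 9 genes were chosen by their falls on them. Likeness among the 9 and to their mean thus follows in part from the choice, and nothing further is read from it.

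The families and partners of the 9 genes held 125 genes on the array, of which 92 were tested. Of these 5 were called higher with Fezf2GFP at 48 h and 3 at 24 h, and 0 were called lower at either time (shares of all genes called as above). The lists' median log2 fold change was 0.15 at 48 h and 0.16 at 24 h, against 0.063 and 0.056 over all genes tested. At an unadjusted p below 0.05, 15 were higher and 2 lower at 48 h, and 9 were higher and 3 lower at 24 h. Without the share of all genes at that threshold, no excess is read from these counts.

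Flrt2, a close relative of Flrt3, was higher with Fezf2GFP, where Flrt3 was lower. It read 13.08, 12.66, 13.69 and 12.86 in the Fezf2GFP-labelled arrays at 48 h, against 11.28, 10.89, 11.17 and 11.19 in the CtrlGFP-labelled arrays. At 24 h Flrt2 read 11.58, 11.47 and 11.69 with Fezf2GFP, against 8.86, 10.03 and 9.81 with CtrlGFP. The vectors were apart at both times, with log2 fold changes of 1.94 (SE 0.26, limma adjusted p = 0.00109) and 2.01 (SE 0.30, adjusted p = 0.00533). The 24 h call was lost with only the 2 groups in the fit (adjusted p = 0.0633).

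Flrt1, the third member of the family, stood at 0.72 at 48 h (adjusted p = 0.343) and 0.30 at 24 h (adjusted p = 0.817). Of the receptors that Flrt proteins bind, Unc5b rose at 48 h (log2 fold change 0.81, SE 0.15, limma adjusted p = 0.00897), with 7.26, 7.61, 7.36 and 7.14 with Fezf2GFP against 6.54, 6.56, 6.55 and 6.49 with CtrlGFP. Unc5d, with -0.54 at 24 h (adjusted p = 0.406), Unc5c and all 3 latrophilins did not pass at either time. Tenm1, a teneurin, the other class of latrophilin ligand, rose at 24 h (1.50, SE 0.29, limma adjusted p = 0.0224), with 8.87, 8.06 and 8.98 with Fezf2GFP against 7.25, 7.20 and 6.94 with CtrlGFP. The call of Tenm1 held in 15 of 25 other fits, and leaving out any array of the 24 h groups but Fezf2GFP replicate 2 ended it (1.33 to 1.56, adjusted p = 0.0543 to 0.134). In all, 13 of the 14 genes of this group were tested, and 2 were called higher at each time.

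Adcyap1, which encodes the ligand PACAP, was higher at 24 h, when its receptor gene Adcyap1r1 was lower. It read 6.04, 5.45 and 6.40 with Fezf2GFP at 24 h, against 3.81, 3.57 and 3.38 with CtrlGFP, where every array was dim. Adcyap1 was thus at least 3.9-fold higher at 24 h (limma adjusted p = 0.0155). At 48 h it read 3.91, 5.19, 5.12 and 5.61 with Fezf2GFP, against 4.76, 3.69, 3.48 and 3.38 with CtrlGFP, and the groups overlapped (1.14, SE 0.37, adjusted p = 0.142). The 24 h call of Adcyap1 held in 17 of 24 other fits and was lost with no filter on dim probe sets (adjusted p = 0.0518), without CtrlGFP 24 h replicate 2 (0.0677) or replicate 3 (0.0715), without Fezf2GFP 24 h replicate 1 (0.0792) or replicate 3 (0.0809), and without both arrays that stood apart (0.0539).

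**Figure D4:**
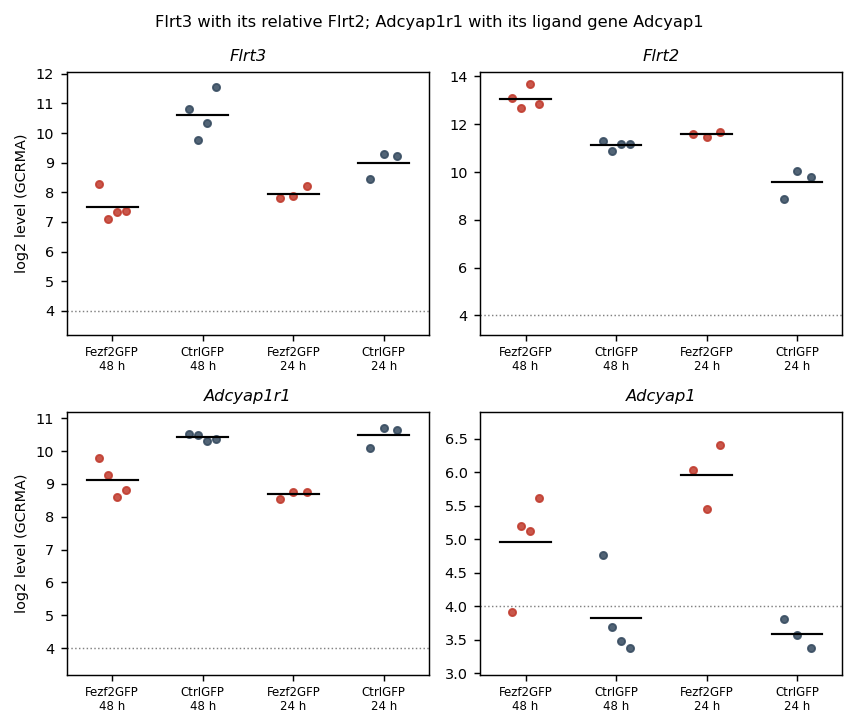
Log2 level (GCRMA) on each array of Flrt3 with its relative Flrt2, and of Adcyap1r1 with the gene of its ligand, Adcyap1, by group. Bars are group means and the dotted line is the dim level of 4; Flrt2 lies higher with Fezf2GFP at both times while Flrt3 lies lower, and every CtrlGFP array of Adcyap1 at 24 h is dim.

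Adcy2, an adenylyl cyclase of the kind such receptors drive, rose at 48 h (limma adjusted p = 0.000529), with a log2 fold change of 2.88 and an SE of 0.35. It read 10.46, 11.06, 11.08 and 10.79 with Fezf2GFP at 48 h, against 7.43, 9.31, 7.69 and 7.42 with CtrlGFP, with CtrlGFP 48 h replicate 2 the highest of the controls. At 24 h the arrays of both vectors lay between 7.34 and 7.81 (0.25, SE 0.40, adjusted p = 0.854). The VIP receptors Vipr1 and Vipr2, which also bind PACAP, were dim on every array, as were Vip, Adcy4 and Adcy8. Of 19 genes of the PACAP group 14 were tested, and 1 was called at each time.

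The relatives of the BTB genes held 32 tested genes of 45, of which 2 were called higher at 48 h and 0 at 24 h. Klhl25 rose by 0.73 (log2 fold change, SE 0.14, limma adjusted p = 0.0158) and Klhl5 by 1.32 (SE 0.31, adjusted p = 0.0336), each with no overlap between vectors. Cul3 itself stood at 0.29 (adjusted p = 0.593). At an unadjusted p below 0.05, 4 of this list were higher and 2 lower at 48 h, and 3 higher and 1 lower at 24 h. The 2 lower at 48 h were Klhl13 (-0.59, limma adjusted p = 0.0891) and Btbd11 (-1.96, adjusted p = 0.0952). At 24 h Klhl13 stood at -0.62 (adjusted p = 0.241) and Btbd11 at 2.07 (adjusted p = 0.245). Klhl25 did not pass in 5 of 25 other fits, among them those without CtrlGFP 48 h replicate 4 (adjusted p = 0.0544) or Fezf2GFP 48 h replicate 2 (0.05), and Klhl5 did not pass in 10 of 25 other fits (highest adjusted p = 0.106), among them those without CtrlGFP 48 h replicates 2, 3 or 4, without Fezf2GFP 48 h replicates 2, 3 or 4, and without Fezf2GFP 24 h replicate 2.

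The remaining 4 lists held 0 called genes at either time by limma. The Lnx, MuSK and Dishevelled group of Pdzrn3 and Pdzrn4 had 6 of 9 genes tested, with the smallest p for Lnx2 (1.21 at 48 h, SE 0.39, limma adjusted p = 0.127), followed by Lnx1 (0.48 at 24 h, adjusted p = 0.681). At an unadjusted p below 0.05 that group held 1 gene at each time, Lnx2. Musk, the muscle kinase that Pdzrn3 binds at the neuromuscular junction, was dim on every array, as were Dok7 and Dvl3. The CtBP group of Rai2 had 8 of 8 tested, and Ctbp1 and Ctbp2 stood at 0.15 and 0.08 at 48 h (adjusted p = 0.791 and 0.876), with the smallest p for Ehmt2, a histone methyltransferase (0.61 at 48 h, adjusted p = 0.0887, the only one of the group at an unadjusted p below 0.05), followed by Zeb2 (-0.46 at 48 h, adjusted p = 0.535). The retinoic acid genes had 7 of 17 tested, and the receptor genes Rara, Rarb and Rarg were dim on every array. Their smallest p values were those of Rai1 (-0.73 at 24 h, adjusted p = 0.0657) and Crabp1, a retinoic acid binding protein (2.44 at 24 h, adjusted p = 0.237), both at an unadjusted p below 0.05, as was Rxrg at 48 h. The Zfhx and NuRD group of Zfhx4 had 12 of 13 tested, and Zfhx3, the nearest relative measured, stood at 0.51 at 48 h (adjusted p = 0.682) and 0.11 at 24 h (adjusted p = 0.955). In that group 0 genes lay at an unadjusted p below 0.05, and the smallest p values were those of the NuRD subunits Mta3 (-0.76 at 48 h, adjusted p = 0.441) and Gatad2a (-0.35 at 24 h, adjusted p = 0.681).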

How the data were processed

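Transcripts of GFP-positive sorted cells were measured on 14 Affymetrix arrays in 4 groups given by the sample titles. Before hybridization the RNA went through repeated linear amplification, per the labels' protocols. The authors deposited log2 values from GCRMA, as the submitters' processing notes name it; the version and settings behind this background correction and normalization were not given in the sources used here.

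Of 45037 probe sets, 34945 were paired with 1 symbol in the platform annotation, 932 with several and 9160 with none. Each of the 18193 symbols was represented by its probe set of highest mean. A gene was tested if that probe set exceeded 4 on at least 3 of the 14 arrays, which kept 10295 genes, all 9 described here among them, and set aside 7898. In R 4.3.3, limma 3.58.1 (lmFit, eBayes) fitted the 4 group means to the 14 arrays together with 10 residual degrees of freedom, with Benjamini-Hochberg adjustment over all genes tested and a threshold of 0.05, which "called" and "passed" refer to. The fit was tested on simulated data. Errors are SD for levels and SE for fold changes. Where all arrays of a group were below 4, the fold is a lower bound against that level. The number of arrays limits the precision.

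The 9 genes, the family, partner and marker lists, and the tests were chosen with earlier results of these data known. Named genes are the 9, the called genes of each family list or its 2 smallest p values, the 3 falls just outside the choice at each time, and the nearest profiles; Flrt1, Unc5c, Unc5d, Cul3, Ctbp1, Ctbp2 and Zfhx3 are given for their roles. Marker genes, Klhl13, Btbd11 and genes lower at both times are named after their values were seen. The motifs were counted as letters on both strands, with no test. Promoter sequences are from RefSeq (GRCm38.p6). Each result was recomputed in 25 alternative fits of filter, scaling, probe set choice, weights, prior, samples and replicate block.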

Additional observations from a re-analysis of the deposited data

Results flagged for a closer look

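In the 18 sets of 4 arrays examined (the 9 genes at 48 h with each vector), 2 had an array far from the others by Dixon's criterion, which chance meets in about 1 of 20 sets. Btbd17 read 5.64 in Fezf2GFP 48 h replicate 2, while the other 3 arrays of that group read 5.84 to 5.86. Pdzrn3 read 12.12 in CtrlGFP 48 h replicate 2, one of the arrays with a high median, while the other 3 read 13.14 to 13.25. Without both arrays with a high median, the log2 fold change of Pdzrn3 at 48 h was -2.33.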

How the results depend on the processing

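The count of the 9 genes called lower at 48 h was 8 in all 25 alternatives. At 24 h it was 4 to 8 against 6, with Zfhx4 called in 17 and Klhl35 in 18 of the 25. Both counts come from refits of the arrays that chose the genes, so their steadiness is no support for the falls. Between times the count was 4 to 5 with CtrlGFP against 5. With Fezf2GFP the count between times was 3, and it was 1 with no filter on dim probe sets, 1 with only the groups compared, and 1 to 3 when 1 array was left out (1 without Fezf2GFP 24 h replicate 2 or 3 or Fezf2GFP 48 h replicate 1). Family and partner genes called at 48 h were 5 in the fit reported, 8 without both control arrays that stood apart, and 3 to 9 when 1 array was left out (the 9 when CtrlGFP 24 h replicate 1 was dropped, the 3 when Fezf2GFP 48 h replicate 2 or CtrlGFP 48 h replicate 4 was). At 24 h they were 3, against 1 with only the groups compared, 15 with array weights, and 1 to 3 when 1 array was left out (1 without CtrlGFP 24 h replicate 2 or 3 or Fezf2GFP 24 h replicate 1 or 3). The mean over probe sets takes in dim probe sets and gave smaller falls for Adcyap1r1 (-0.46 at 48 h and -0.62 at 24 h), Btbd17 (-0.61 and -1.17) and Pdzrn3 (-1.05 at 48 h). No called value changed sign. The cause of the other changes was not tested.

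Whether replicate numbers pair the arrays could not be settled. Deviations of the 7 same-numbered pairs at the same time correlated at -0.056 to 0.318, and 4 exceeded 0.1. Differently numbered arrays of the 2 vectors at the same time correlated at -0.529 to 0.394, a range that takes in the first. With the replicate block, 8 of the 9 genes were called at 48 h, 5 at 24 h (Zfhx4 missing, adjusted p = 0.0622), and 3 and 5 between times, and 5 and 2 family and partner genes were called (Klhl25 missing at 48 h, adjusted p = 0.0519, and Adcyap1 at 24 h, 0.0626). Signal over background limits the dim genes, Pdzrn4 at 24 h above all, and the 24 h contrasts rest on 3 arrays a group.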

Other observations

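Hbb-y, an embryonic globin gene of red blood cells, read 13.78 in CtrlGFP 24 h replicate 1 and 9.96 in Fezf2GFP 24 h replicate 3, and 3.04 to 5.78 on the other 12 arrays. Of the 3 Cajal-Retzius markers tested, early-born neurons of the cortical surface, the mean level was 7.22 to 7.37 in Fezf2GFP and 5.27 to 7.15 in CtrlGFP arrays at 48 h, and 7.73 to 8.33 and 6.35 to 6.47 at 24 h. None of the 3 passed by limma, and 1 at 48 h and 3 at 24 h were higher at an unadjusted p below 0.05.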
